A study of Mus musculus with 8 samples.

Results

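The Ube2 and Usp genes encode the enzymes that hand ubiquitin on to substrates and the largest family of proteases that take it off again. Genes were taken by symbol, beginning with Ube2 or with Usp and a digit, which gave 72 of the 10690 genes listed in the series, 32 of them Ube2 and 40 Usp. The AS and RC4 tables list 70 of them each and the RC8 table all 72. Ube2q2 and Usp13 were not listed for AS, and Ube2l6 and Usp54 were not listed for RC4. The symbols also bring in a few relatives with other roles. Usp6nl is a GTPase-activating protein, Ube2cbp a protein that binds Ube2c, Ube2d-ps a pseudogene, and Usp39 a Usp protein thought to lack protease activity.

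All libraries were made from NIH3T3, an established line of mouse fibroblasts, with no genetic change named in the labels. NT cells were not treated, AS cells were kept in 250 µM sodium arsenite for 1 h, and RC4 and RC8 cells were given the same treatment and then 4 h or 8 h in regular medium. Each condition has 1 QuantSeq FWD library, in which reads come from the 3′ ends of polyadenylated transcripts. There were 22.4 to 23.0 M reads on listed genes per library, and the lowest read number of a listed gene in a library was 50. With 1 library per condition there was no test, and a gene was called when its log2 change over NT was at least 1 in size relative to the median gene. Intervals in brackets are 95% intervals for counting error, and they do not cover variation between cultures. Levels are given as RPM, the reads of a gene scaled to the library's reads on the genes listed in that table, not to all its reads. The RPM of a gene in NT can therefore differ slightly between tables. A lower share of RNA per cell cannot be told apart from fewer cells that express the gene.

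Before the results, the labels were checked. All 9 fibroblast markers were listed, at 80.1 to 10272 RPM in NT, with log2 changes of −0.13 to 0.17 in AS, −1.88 to 0.35 in RC4 and −1.80 to 0.06 in RC8. Their summed level was 15144, 15759, 12012 and 9104 RPM in NT, AS, RC4 and RC8, and Pdgfrb and Col3a1 fell past 2-fold in both recovery libraries and Col1a2 in RC8. Of 12 markers of other cell types only Tubb3, a neuronal tubulin, was listed, at 2.79, 2.32, 11 and 15.8 RPM, and the defining markers of the other types were not listed. The part of these marker changes in the RC4 and RC8 results was not tested. Of 6 arsenite-inducible genes 4 were listed, and in AS Hspa1b, Dnajb1 and Hmox1 rose past 2-fold, with log2 changes of 2.41, 1.76 and 1.11, while Srxn1 was at −0.04. All 4 rose in RC4, by 3.57 to 6.11. The median gene of the RC4 table was 0.30 lower on the log2 scale than the total reads on listed genes imply. In AS it was at −0.04 and in RC8 at 0.01. A change in RC4 relative to the median gene is therefore 0.30 higher than the same change in RPM.

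Ubiquitin is activated by an E1 enzyme, passed to an E2 enzyme, most of which are named Ube2, and joined to a substrate with the help of an E3 ligase. The E2 and the E3 together set which chain is built, and some E2 enzymes carry SUMO, NEDD8 or ISG15 in place of ubiquitin. Usp proteins are cysteine proteases that cut ubiquitin from substrates or edit chains. In arsenite-stressed cells damaged proteins are tagged with ubiquitin and cleared by the proteasome.

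Some of the transcripts can end at more than 1 polyadenylation site (PAS). PASs in the 3′ most exon change the length of the 3′UTR, and PASs further upstream truncate the transcript. The 30 bases from 40 to 11 nt before a PAS hold the region in which the hexamers AATAAA or ATTAAA are usually found. These windows are printed for an internal PAS of Usp40, Usp16, Usp21, Usp34 and Usp32. They are also printed for the 3′ most exons of Usp32, Ube2n, Ube2h and Ube2e1. The widest changes in share, those of Usp49 and Ube2q1 in RC4, are not among them. Windows run 5′ to 3′ on the gene's strand, from the mm9 genome, with any match to either hexamer in capitals.
Usp40 intron 2 of 28 exons, minus strand, chr1:89902494-89902523: ggttttaatagggttgaagttaaaaggcaa
Usp16 intron 3 of 18 exons, plus strand, chr16:87464651-87464680: agttgcctatagatatttaaacttcaaaaa
Usp21 intron 2 of 13 exons, minus strand, chr1:173216347-173216376: gtcaactcctcattacaccagtggattctt
Usp34 intron 62 of 80 exons, plus strand, chr11:23354756-23354785: ttttattacataaatcttttaaaataataa
Usp32 intron 32 of 34 exons, minus strand, chr11:84801092-84801121: cAATAAATAAAtttaaaaaaaaaaaaaaaa
Usp32 proximal PAS of exon 34, minus strand, chr11:84799763-84799792: gcacaaAATAAAgtcctaATTAAAatagca
Usp32 distal PAS of exon 34, minus strand, chr11:84798001-84798030: gtaactattacccaaacaaATTAAAtactg
Ube2n proximal PAS, plus strand, chr10:95005689-95005718: atgtgacaatcgtatttaaaATTAAAatgg
Ube2n middle PAS, plus strand, chr10:95005809-95005838: gattctactgagtgagtatttataaactgg
Ube2n distal PAS, plus strand, chr10:95008252-95008281: tttcaaagaagtataaacAATAAAaacgta
Ube2h proximal PAS, minus strand, chr6:30162976-30163005: ttctgattacctccccctcAATAAAaaaaa
Ube2h distal PAS, minus strand, chr6:30161300-30161329: tgtaaacttttttaAATAAAatgtgtatat
Ube2e1 proximal PAS, minus strand, chr14:19115435-19115464: ttgttacctcgtatatgtaaaatggacacc
Ube2e1 distal PAS, minus strand, chr14:19115252-19115281: cttacgtctgcatttgtgctAATAAAcaat

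The hexamers were found at about the same rate in the members' 3′ most exons as elsewhere. A match was present for 41 of 76 PASs of Ube2 genes and 47 of 91 of Usp genes, with 51.8% of 19293 PASs of all genes in the same class. At internal PASs it was present for 1 of 8 in Usp genes, the one in Usp32, for 3 of 10 in Ube2 genes and for 43.1% of 2613 in all genes. Most of these 10 belong to Ube2e3 and Ube2w, and in GENCODE vM1 they lie in the last exon or just past the gene's end. A run of A followed the internal PAS of Usp40 and that of Usp8 within 20 nt, as it did for 16.2% of internal PASs of all genes. The window of the internal PAS of Usp32 also ends in a run of A, ahead of the PAS, where runs were not searched for. Reads primed inside such a run look like a transcript end, and their part in the values of these PASs was not tested.

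At the end of arsenite treatment most Usp genes lay below the median gene and most Ube2 genes did not. Usp genes had a median log2 change of −0.28 relative to the median gene, a fold of 0.824, and 30 of 39 lay below it, as 50% of all genes do by construction. The Ube2 genes had a median of 0.03, with 18 of 31 above it and 13 below. The middle 50% of all genes lay between −0.25 and 0.16, and 21 of 39 Usp genes and 4 of 31 Ube2 genes were in the lowest 25% of all genes. Of the Usp genes, 4 fell past 2-fold and none rose, while 2.93% of all genes fell and 0.718% rose. None of the Ube2 genes passed the fold in either direction. At 1.5-fold 12 Usp genes and 1 Ube2 gene were below the median gene and none above, with 10.2% of all genes below and 2.07% above.

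**Figure D1:**
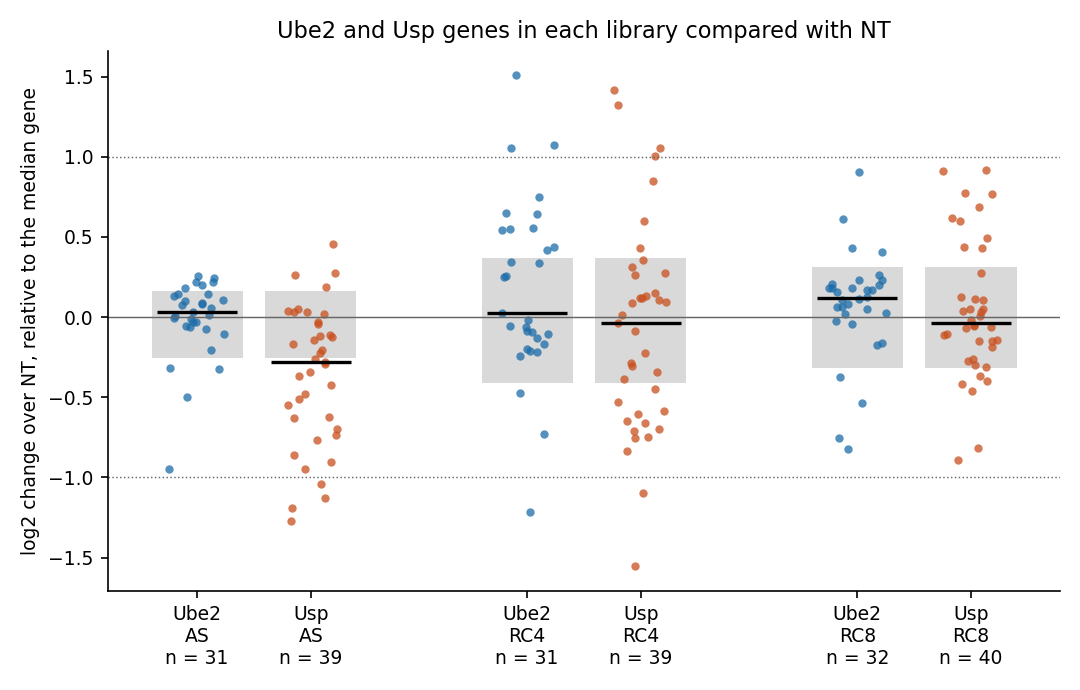
Change of each Ube2 gene (blue) and Usp gene (orange) over NT in AS, RC4 and RC8, as the log2 ratio of reads relative to the median gene. Black lines are family medians, grey boxes the middle 50% of all genes, and dotted lines mark 2-fold; in AS the Usp median of −0.28 lies below the grey box, whose lower edge is −0.25.

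The 4 Usp genes that fell in AS are long genes, and 3 of them encode large proteases. Gene coordinates here and below are those of GENCODE vM1 on mm9. Usp34, which acts on axin in Wnt signalling (chr11:23206916-23389744), had 126, 50.9, 75.5 and 130 RPM in NT, AS, RC4 and RC8. Its change in AS was −1.27 (−1.37 to −1.17), and the RC8 library was level with NT. Usp47, which works on DNA polymerase beta in base excision repair (chr7:119167020-119254900), had 132, 58.6, 117 and 110 RPM in the same order. Its change in AS was −1.13 (−1.22 to −1.03), and both recovery libraries were closer to NT than to AS. Usp24 (chr4:105988818-106113927) had 27.2, 12.9, 23.5 and 22.2 RPM, a change of −1.04 (−1.25 to −0.84) whose interval reaches past the 2-fold line. Usp6nl, the GTPase-activating protein (chr2:6243713-6367436), had 15.1, 6.46, 12.3 and 16.4 RPM and a change of −1.19 (−1.48 to −0.90). In all 4, AS was the lowest of the 4 libraries.

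The next lowest Usp genes in AS did not reach 2-fold. Usp40 changed by −0.95 and Usp31 by −0.90. Usp7, which removes ubiquitin from MDM2 and p53, had 145 RPM in NT and 87.1 in AS, a change of −0.70 (−0.78 to −0.62). Usp1, which works on FANCD2 and PCNA in DNA repair, changed by −0.55, and Usp12, a partner of the same WD-repeat cofactor, by −0.74. At the other end stood Usp3, a histone H2A protease, at 0.46, Usp5, which takes apart free ubiquitin chains, at 0.27, and Usp20 at 0.26. Usp14, which trims chains at the proteasome, had 120 RPM in NT and 119 in AS and a change of 0.03.

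Ube2 genes held a narrow range in AS. Leaving aside Ube2l6, the E2 of ISG15, the range was −0.50, for Ube2o, to 0.25, for Ube2f. Ube2l6 had 106 reads in NT and 53 in AS, and 1 of its 2 AS count columns was 0, so its change of −0.95 is doubtful. The E2 enzymes that serve many RING ligases were at −0.03 for Ube2d1 and Ube2d2a and at 0.15 for Ube2d3. These genes and Ube2d-ps are related, and whether reads were split among them was not tested, so each of these values is uncertain. Ube2n and Ube2v1, which build K63-linked chains as a pair, were at −0.06 and 0.22.

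**Figure D2:**
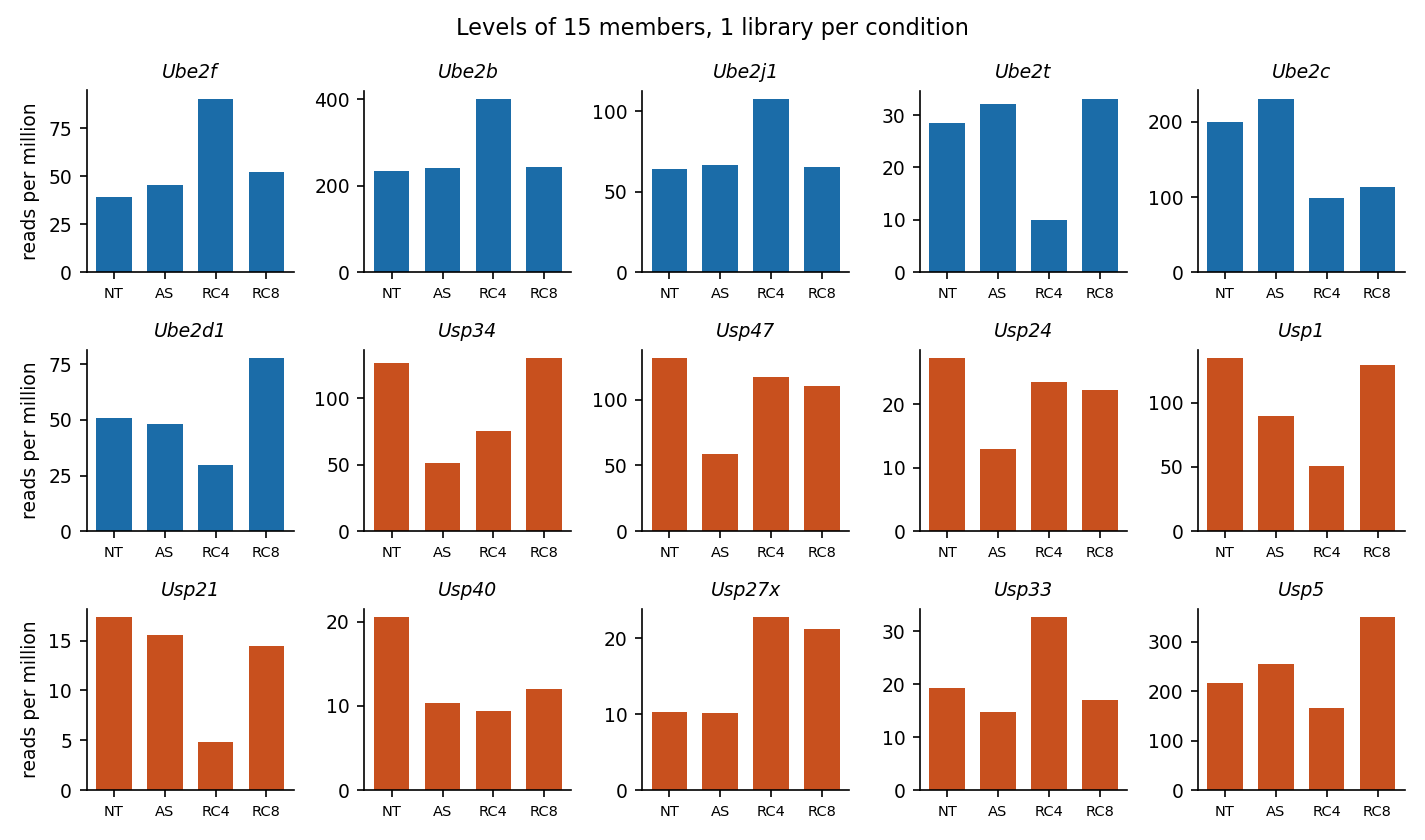
Levels (RPM) of 15 members in the NT, AS, RC4 and RC8 libraries, with a linear axis from 0 for each gene and 1 library per bar (blue, Ube2; orange, Usp). Usp34, Usp47 and Usp24 are lowest in AS, while Ube2f, Ube2b and Ube2j1 are highest and Ube2t, Usp1 and Usp21 lowest in RC4.

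Gene and mRNA length moved with the AS values, and genes were put in 4 groups of equal size by mRNA length. The median Usp gene is 52.0 kb long with a longest annotated mRNA of 4.68 kb, the median Ube2 gene 30.3 kb with 2.48 kb, and the median of all genes is 22.5 kb with 2.93 kb. Over all genes, the median change in AS was 0.12, 0.07, −0.04 and −0.33 from the shortest to the longest group, and 9.35% of the longest group fell past 2-fold. The 22 Usp genes in that group had a median of −0.50 and the 14 in the next group −0.08. The 3 Ube2 genes in the longest group had a median of −0.20. Across 39 Usp genes, Spearman's rho between mRNA length and change in AS was −0.60, against −0.49 across 10015 genes and −0.15 across 31 Ube2 genes. The genes share the same pair of libraries, so these are descriptions. The part of length in the AS values of Usp genes was not tested. In RC4 and RC8 rho was 0.01 and −0.04 across Usp genes.

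**Figure D3:**
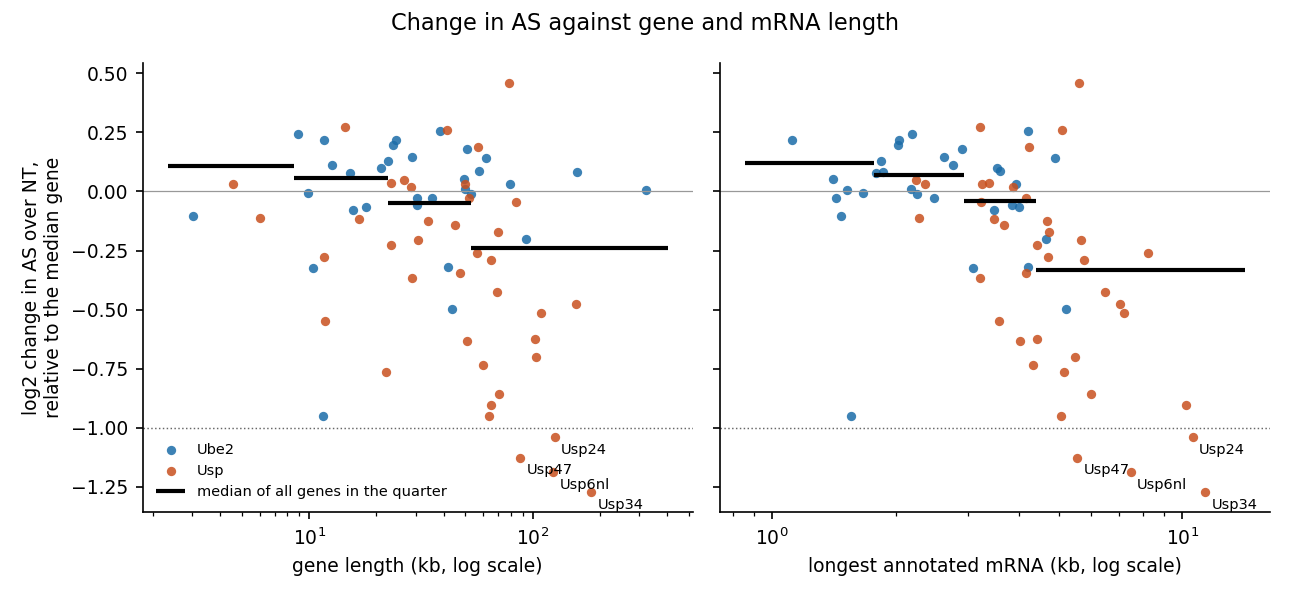
Log2 change in AS over NT relative to the median gene, against gene length (left) and the longest annotated mRNA (right), both in kb on a log axis, for 31 Ube2 genes (blue) and 39 Usp genes (orange). Black bars are medians of all genes in each of 4 groups by length, from 0.12 down to −0.33 for mRNAs, with the outer groups drawn only over the members' range; the 4 labelled Usp genes that fell past 2-fold (dotted line) are on the right of both plots.

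At 4 h of recovery the family medians were near the median gene and the spread was wider. The median of Ube2 genes was 0.03 and that of Usp genes −0.04, with the middle 50% of all genes between −0.41 and 0.37. On the RPM scale they were −0.28 and −0.34, and the median gene −0.30. Relative to the median gene, 3 Ube2 genes rose and 1 fell past 2-fold, and 4 Usp genes rose and 2 fell, where 6.38% of all genes rose and 6.38% fell. At 1.5-fold 6 Ube2 and 6 Usp genes were above and 2 and 10 below, with 15% of all genes above and 17.4% below. On the RPM scale only Ube2f, Usp13 and Usp27x rose past 2-fold, and 8 members fell, Ube2c and Ube2t with Usp1, Usp2, Usp19, Usp21, Usp40 and Usp46. On that scale 3.69% of all genes rose and 13.4% fell. The sign itself differs between the scales for 3 of 31 Ube2 and 10 of 39 Usp genes in RC4, and for 2099 of 10081 genes in all.

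The E2 genes that rose in RC4 act in different branches. Ube2f, an E2 of NEDD8 that serves cullin 5 (chr1:93146888-93185454), had 39.0, 45.2, 90.1 and 52.0 RPM in NT, AS, RC4 and RC8. Its change in RC4 was 1.51 (1.39 to 1.62), and RC4 was the highest of the 4 libraries. A PAS that holds 9.59% of its reads in RC4 is also listed under Gm7785. Ube2b, a RAD6 protein that acts on histone H2B and PCNA (chr11:51798999-51814264), had 235, 240, 401 and 243 RPM, and its change in RC4 was 1.08 (1.03 to 1.13). Its close relative Ube2a had 57.4, 55.6, 68.4 and 56.0 RPM and a change of 0.55. Ube2j1, a membrane-bound E2 of the endoplasmic reticulum (chr4:33118391-33139338), had 63.8, 66.5, 107 and 65.3 RPM and a change of 1.05 (0.96 to 1.15). Ube2b and Ube2j1 were at 0.77 and 0.75 on the RPM scale, under 2-fold. The other E2 enzymes of endoplasmic-reticulum quality control, Ube2j2, Ube2g1 and Ube2g2, were at −0.21, −0.20 and 0.42 relative to the median gene.

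Ube2t, the E2 of the Fanconi anaemia pathway (chr1:136859142-136870739), fell in RC4. It had 28.5, 32.2, 9.96 and 33.0 RPM in NT, AS, RC4 and RC8, so that RC4 stood apart from the other 3 libraries, and its change was −1.22 (−1.44 to −1.0). The Usp gene of the same pathway, Usp1 (chr4:98590501-98602234), had 135, 89.4, 51.1 and 129 RPM and a change of −1.1 (−1.2 to −1.0). Its cofactor Wdr48 had 54.7, 41.0, 31.4 and 62.6 RPM and a change in RC4 of −0.50, under 2-fold. Ube2c, which works with the anaphase-promoting complex, had 200, 230, 98.1 and 114 RPM, and its change was −0.73 in RC4 and −0.82 in RC8.

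Usp21, a histone H2A protease (chr1:173212076-173218122), had the lowest change of the members in RC4. It had 17.4, 15.6, 4.80 and 14.4 RPM, with 110 reads in RC4, and its change was −1.55 (−1.87 to −1.24). The Usp genes that rose had low read numbers. Usp13 had 4.84 RPM in NT, 10.5 in RC4 and 7.35 in RC8, a change in RC4 of 1.42 (1.09 to 1.76). Usp27x, an X-linked relative of Usp22 (chrX:6948402-6952956), had 10.2 RPM in NT and AS in the AS table, 11.2 in NT in the other tables, 22.8 in RC4 and 21.1 in RC8, a change in RC4 of 1.32 (1.1 to 1.55). Usp33, which works at centrosomes and on adrenergic receptors, had 19.2, 14.7, 32.7 and 17.1 RPM and a change of 1.06 (0.88 to 1.23). Usp31 had 19.7, 10.2, 31.8 and 18.9 RPM, the lowest value in AS and the highest in RC4, and its change in RC4 was 1.01 (0.83 to 1.18).

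At 8 h no member was past 2-fold, where 3.59% of all genes fell and 2.95% rose. At 1.5-fold 2 Ube2 and 7 Usp genes were above and 2 and 2 below, with 11.1% of all genes above and 12.1% below. The median was 0.12 for Ube2 genes, with 24 of 32 above the median gene, and −0.04 for Usp genes, with 19 of 40 above it. The middle 50% of all genes lay between −0.31 and 0.31. Highest were Usp3 at 0.92 (0.75 to 1.08) and Usp27x at 0.91 (0.69 to 1.13), followed by Ube2q2 at 0.90, which rests on 102 reads in NT and 195 in RC8. Usp22, the protease of the SAGA complex, was at 0.77 and Usp5 at 0.68, the latter with 217 RPM in NT and 350 in RC8. Lowest were Usp11 at −0.89, Ube2c at −0.82, Usp40 at −0.81 and Ube2n at −0.75.

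Usp40 stood low in all 3 libraries. It had 20.5, 10.3, 9.35 and 12 RPM in NT, AS, RC4 and RC8, and its changes were −0.95, −0.84 and −0.81, each under 2-fold and each measured against the same NT library.

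Other parts of the ubiquitin system were described by lists of genes. The 7 listed E1 enzymes had medians of −0.09, −0.11 and −0.04 in AS, RC4 and RC8, and none passed 2-fold. The ubiquitin E1 Uba1 was at −0.13, 0.42 and 0.04, and the SUMO E1 subunit Uba2 at −0.56, −0.95 and −0.40. Deubiquitinases outside the Usp family, 24 or 25 listed, had medians of 0.00, −0.08 and 0.15, with 1 gene past the fold in AS, Otud4 at −1.57, and 1 in RC4, Otud7a at −1.46. The 9 listed cullins and RING partners had medians of −0.24, −0.10 and −0.21 and none past 2-fold. For these and the next lists the share of all genes past 2-fold was 2.93% down in AS, 6.38% in each direction in RC4 and 3.59% down in RC8.

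The HECT ligases, E3 enzymes that take ubiquitin onto themselves before passing it on, had the lowest AS median of these lists. It was −0.48 over 21 genes, 19 of them below the median gene, and −0.12 and 0.01 in RC4 and RC8. In AS, 3 of 21 fell past 2-fold (2.93% of all genes), with Herc2 the lowest at −2.15, while in RC4 Nedd4l rose at 1.52 and Hectd2 at 1.35. The 7 listed ubiquitin-like modifiers had medians of 0.08, 0.18 and −0.03. Sumo2 fell in RC4, at −1.03, and in RC8, at −1.25. Among 5 listed Usp cofactors, with medians of −0.22, −0.07 and 0.19, Atxn7 of the SAGA complex fell in AS at −1.1.

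Ube2 and Usp transcripts more often had a choice of PAS than other transcripts. Of the members listed for AS, 74.2% of Ube2 and 76.9% of Usp genes had more than 1 PAS, against 50.6% of all genes. Read number, which bears on how many PASs pass the threshold of the authors, was higher for Ube2 genes, with a median of 57.4 RPM in NT, and lower for Usp genes, with 27.2, than for all genes, with 32.6. The change between PASs of the 3′ most exon was scored as REDu, the log2 ratio of distal to proximal PAS in the treated library minus that in NT, for the 2 PASs with the largest change in share. A negative REDu means that the proximal PAS gained.

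Most members with a score had a negative REDu, as most genes did. Ube2 genes had median REDu values of −0.32, −0.62 and −0.40 in AS, RC4 and RC8, over 21, 21 and 22 genes. That of Usp genes was −0.25, −0.55 and −0.12, over 25, 28 and 26 genes, and that of all genes −0.22, −0.37 and −0.14. REDu was below 0 in 14, 16 and 13 Ube2 genes and in 20, 22 and 17 Usp genes in the same order, with 67.3%, 68.4% and 55.5% of all genes below 0.

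Few members were past 2-fold in AS and RC8, and more in RC4. A REDu of −1 or less was found in 1 of 21 Ube2 and 2 of 25 Usp genes in AS, where 8.74% of all genes had one. In RC4 it was found in 7 of 21 Ube2 and 7 of 28 Usp genes, where 21% of all genes had one. In RC8 it was found in 4 of 22 Ube2 genes and 1 of 26 Usp genes, with 13.7% of all genes. A REDu of 1 or more was found in no member in AS, in 2 Ube2 and 1 Usp genes in RC4, and in 3 of each family in RC8, with 2.82%, 6.17% and 11% of all genes. A PAS changed by 10 percentage points or more in 0 of 23 Ube2 and 4 of 30 Usp genes in AS (15.3% of all genes with more than 1 PAS). The counts were 7 of 23 and 10 of 32 in RC4 (29.1%), and 8 of 24 and 6 of 29 in RC8 (27%).

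**Figure D4:**
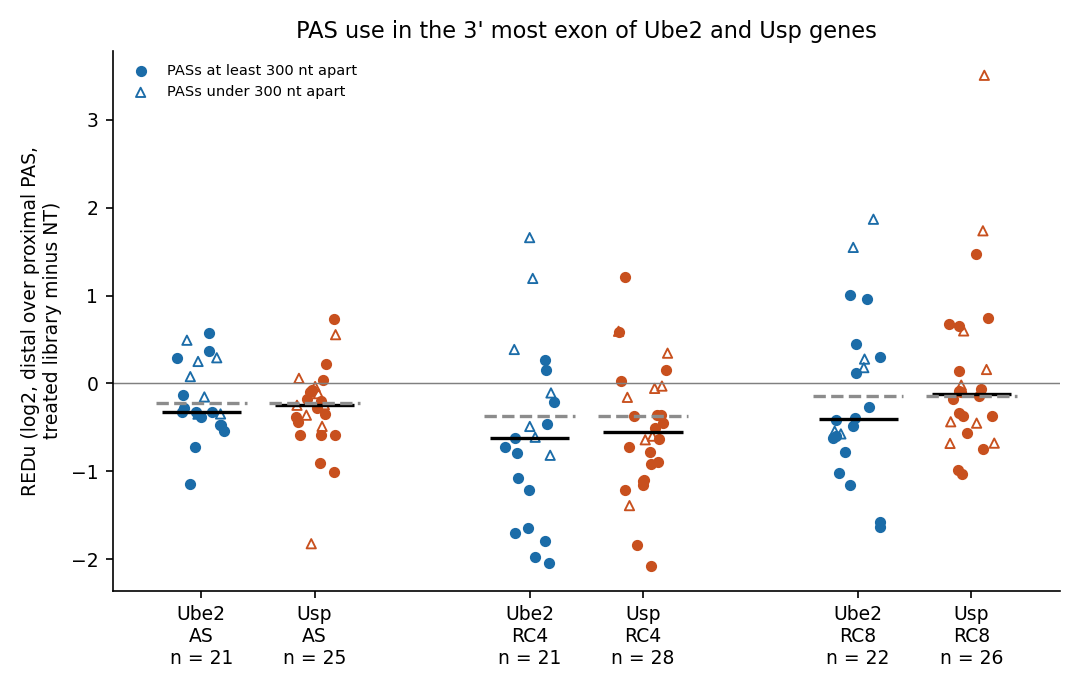
REDu of each Ube2 gene (blue) and Usp gene (orange) in AS, RC4 and RC8, where negative values mean more use of the proximal PAS than in NT. Filled circles are pairs of PASs at least 300 nt apart and open triangles closer pairs, black lines are family medians and dashed grey lines the medians of all genes; in RC4 both family medians, −0.62 and −0.55, lie below the −0.37 of all genes.

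Distance between the PASs moved with the score. In RC4, members with PASs at least 300 nt apart had a median REDu of −0.75 over 34 genes, and 13 of these were at −1 or less. The 15 members with closer PASs had a median of −0.11, and 1 was at −1 or less. Over all genes the medians were −0.59 for 2830 distant pairs and 0.02 for 1630 close pairs. Of these pairs, 28.3% and 8.34% were at −1 or less. Assignment of 3′ end reads to neighbouring PASs is less certain, and its part in the close pairs was not tested.

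The lowest REDu values of the members were in RC4. Here and below, the value after ± is the standard error from counting, not an interval like those in brackets. Usp49, a histone H2B protease, used its proximal PAS for 52.2% of reads in NT and 82.2% in RC4. Its PASs were 2602 nt apart, and its REDu was −2.08 ± 0.29. The same gene was at −0.20 in AS and −0.37 in RC8, with a neighbouring PAS in place of 1 or both of these. Ube2n kept 41.2% of reads at its distal PAS in NT and 17.5% in RC4, with a REDu of −2.05 ± 0.22 against the proximal PAS printed above. In RC8 its distal share was 22.8%, the middle PAS held 68.0%, and the REDu against that PAS was −1.63 ± 0.19. The total of Ube2n reads was 37.4, 34.9, 25.5 and 22.3 RPM in NT, AS, RC4 and RC8.

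Ube2h and Ube2q1 moved in RC4 and were near NT in RC8. Ube2h, an E2 with a role in red cell maturation, had distal shares of 30.6%, 26.0%, 11.9% and 25.2% in NT, AS, RC4 and RC8. Its REDu was −0.33, −1.71 and −0.39, and both of its PASs have AATAAA. Ube2q1 had 66.5%, 61.4%, 37.7% and 62.2%, and its REDu in RC4 was −1.65 ± 0.09.

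Among Usp genes, Usp32, a membrane-bound protease, moved in all 3 libraries. Its distal shares were 80.4%, 68.1%, 58.0% and 70.8% in NT, AS, RC4 and RC8, and its REDu was −1.01, −1.84 and −1.03, each against the same NT library. Usp24 had a REDu of −0.59, −1.22 and −0.99. Usp36, a nucleolar protease, had the lowest value in AS, −1.83 ± 0.45, between PASs 137 nt apart. Usp34 and Ube2c had no pair of PASs in the 3′ most exon to score in any comparison, and in AS Usp47 was at 0.22.

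Shifts past 2-fold toward the distal PAS were fewer than those toward the proximal PAS in RC4, 3 against 14. In RC8 they were not fewer, 6 against 5. Of these distal shifts, 2 of 3 in RC4 and 4 of 6 in RC8 were between PASs under 300 nt apart. Over all genes, 178 of 275 such shifts in RC4 and 350 of 497 in RC8 were. Ube2e1 used its distal PAS, 183 nt downstream, for 83.1% of reads in NT and 85.4% in AS, and in the later tables for 83.3% in NT, 94.0% in RC4 and 94.8% in RC8. Its REDu was 0.25, 1.66 and 1.87, and of its 2 windows the distal one holds AATAAA. Ube2g1 was at 1.2 in RC4 and 1.55 in RC8, between the first and the middle of its 3 PASs, 157 nt apart. Its last PAS, 1869 nt further on, went from 17.1% in NT to 9.65% in RC4 and was at 17.1% in RC8. Usp15 went the other way in RC8 from RC4, from −0.64 to 1.74, with PASs 149 nt apart. Usp40 had 3.51 in RC8, where a PAS that held 4.27% of reads in NT held 32.0%.

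Internal PASs lie in introns or exons upstream of the 3′ most exon, and 7 Usp genes had one in the AS and RC4 tables and 6 in RC8. The share of reads at internal PASs moved in different directions between Usp genes. In AS it was higher than in NT in 3 of 7, with a median change of −0.55 percentage points, while it was higher in 60% of 1283 genes with both kinds of PAS. In RC4 it was higher in 6 of 7 with a median of 3.76 points and in 64.8% of all such genes, and in RC8 in 2 of 6 with a median of −2.23 points and in 42.5% of all. A gain of 5 points or more was seen in 1, 2 and 0 Usp genes in AS, RC4 and RC8 (20.7%, 35.6% and 18.8% of all genes). A loss of that size was seen in 2, 1 and 1 (12.5%, 11.9% and 25.6% of all genes).

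The largest losses in AS were in Usp40 and Usp16. In Usp40 the PAS in intron 2, at 4.17% of the gene's span, held 20% (16.6 to 23.9) of reads in NT and 6.45% (3.95 to 10.4) in AS. It held 13.5% (9.56 to 18.7) in RC4 and 18.1% (14 to 23.1) in RC8. It fell in AS and was within counting error of NT in RC8, while the reads of the whole gene stayed low. In Usp16, a histone H2A protease, the PAS in intron 3 held 18.2% (15.2 to 21.7) in NT and 8.79% (6.39 to 12) in AS. It held 17.6% in RC4 and 10.1% (7.83 to 12.9) in RC8. In the RC4 table a second PAS, in intron 9, held 11.8% in NT and 15.6% in RC4, so that the internal share was 30% and 33.2%.

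The remaining internal PASs changed by at most 7.5 points in Usp genes. Usp21 used intron 2 for 12.5% of reads in NT, 10.0% in AS and 20% (13.6 to 28.4) in RC4, with 9.94% in RC8, and its RC4 value rests on 110 reads. Usp28 used intron 17 for 33.1% in NT and 39.2% in AS, from 149 and 164 reads. Usp32 used intron 32 for 7.94% in NT and 12% (9.66 to 14.8) in AS, with 11.7% in RC4 and 8.12% in RC8. Usp34, the gene with the largest fall in AS, used intron 62 for 6.49%, 5.94%, 9.80% and 6.97%, so the fall was shared by the intronic and the last PAS. Usp8, a protease of endosomal sorting, has an internal PAS in coding exon 11 of 19, at 9.60%, 10.6%, 13.9% and 7.04%.

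**Figure D5:**
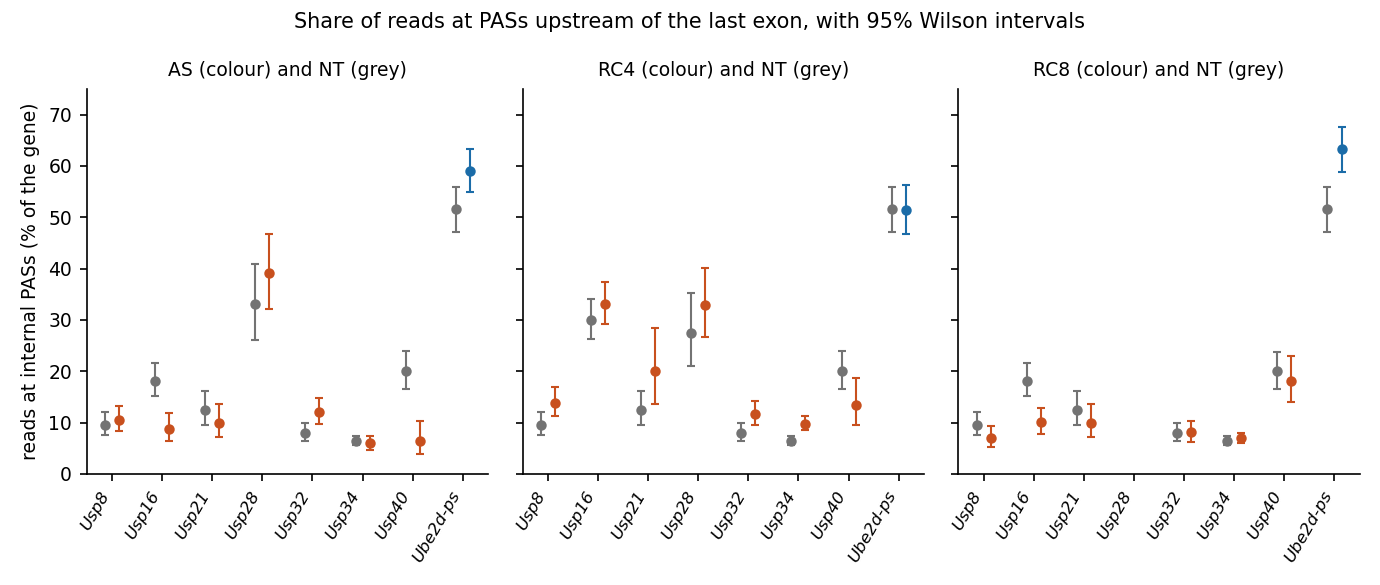
Percent of a gene's reads at internal PASs in NT (grey) and in AS, RC4 or RC8 (colour; orange, Usp; blue, the pseudogene Ube2d-ps), with 95% Wilson intervals for counting error. Usp40 and Usp16 drop in AS, from 20% to 6.45% and from 18.2% to 8.79%, and Usp28 has no internal PAS in the RC8 table.

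Internal PASs were listed for 9.68%, 12.9% and 9.38% of Ube2 genes in AS, RC4 and RC8, against 15.8%, 16.8% and 15.6% of all genes. Those listed were special cases. Ube2e3 and Ube2w had nearly all reads, 99.9% to 100% in every library, at PASs that the deposited tables list as intronic. In GENCODE vM1 these PASs lie in the last of 6 exons or just past the gene's end, so they are no premature ends by that annotation. The pseudogene Ube2d-ps had 51.6%, 59.1%, 51.5% and 63.4% of reads at its 2 internal PASs. Ube2v2 had a PAS in intron 3 in the RC4 table alone, at 9.83% in NT and 11.9% in RC4.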

How the data were processed

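QuantSeq FWD reads of 4 libraries of NIH3T3 cells, 1 per condition, were trimmed by the authors with bbmap, mapped to mm9 with STAR (2.5.2a in the submitters' processing notes) and analysed with MAAPER on the PASs of PolyA_DB v3. The authors kept genes with at least 50 reads and PASs at a threshold of 5%. Counts per gene were deposited without normalization, in 2 columns per library, which were added since chi-square over degrees of freedom between them was 0.974 to 1.03. The share of a gene's reads at each PAS was deposited as a fraction per library. P values and the RLD and RED scores in the tables are comparisons made by the authors and were not used. No column of per-sample values (0) was left unused, and REV libraries were not analysed here.

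Log2 changes were taken relative to the median gene of each table, with exact conditional intervals. Shares have Wilson intervals, and REDu was computed by the published formula from the deposited fractions. Every PAS upstream of the 3′ most exon counted as internal. Gene spans, exons and mRNA lengths came from GENCODE vM1 on NCBIM37 (mm9), which held 95.8% of the 10690 genes and all 72 members, and 93.0% of the members' 185 PASs lay within 50 nt of the gene span. A tract of A was 6 in a row, or 7 in 10 bases, within 20 nt. Scores were tested on simulated data. Alternatives used TMM factors (edgeR 4.0.16, R 4.3.3), RPM, other thresholds and single count columns. Python 3.11.15, pandas 2.3.3 and scipy 1.17.1 were used.

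Named genes were, in each comparison and family, the 5 lowest and 5 highest changes among genes with at least 200 reads in NT or the treated library, genes fixed by role, the 4 largest gains and losses at internal PASs and the 3 lowest and highest REDu among PASs at 5% or more. Other genes named (Ube2q2, Usp40 in the REDu of RC8, Usp6nl and the ubiquitin-system genes past 2-fold) are those of counts. The members and lists were chosen with earlier results of these data known. A gene that matches the symbols, and single values of a few genes inside the counts, are not reported here.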

Additional observations from a re-analysis of the deposited data

How the results depend on the processing

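No paired analysis was possible because each condition has 1 library, and no replicate could be left out. Of 150 family values under an alternative, 123 stayed the same and 27 moved, and of 355 values of named genes 335 stayed the same and 20 moved, 18 of these in RC4 on the RPM scale. None changed sign past its call.
On the RPM scale the RC4 median of Ube2 genes was −0.28. At 1.5-fold 1 Ube2 and 12 Usp genes were called in AS, all down (10.2% of all genes). In RC4 the calls were 8 for Ube2, 6 up and 2 down, and 16 for Usp, 6 up and 10 down (15% up and 17.4% down). In RC8 they were 4, 2 each way, and 9, 7 up and 2 down (11.1% up and 12.1% down). With a minimum of 200 reads in both libraries 3 Usp genes passed 2-fold in RC4, 2 up and 1 down, since Usp13 and Usp21 have fewer reads and Usp31 was at 0.96 relative to the median gene of that subset. With 1 count column alone, 1 Ube2 and 1 Usp gene passed in RC8.
The mean change at internal PASs also moved. In Usp genes it was −2.12 points in AS, −0.0903 when pooled by reads and −3.49 with at least 200 reads; 3.01 in RC4 and 1.61 with 200 reads; and −2.41 in RC8 and −4.19 for PASs of at least 10%. In Ube2 genes it was 2.5, 0.49 and 3.9 points in AS, RC4 and RC8, and 0.47, 3.33 and 2.03 when pooled. A pooled value also moves with the read number of each gene, and is not a measure of PAS use alone. In RC4 the internal share changed by 2.07 points in Ube2v2, −0.1 in Ube2d-ps and 0.0 in Ube2e3 and Ube2w. Ube2w, with all its reads at such PASs, went from 883 to 1139 reads. An alternative chosen after seeing the data, genes with a PAS of the 3′ most exon as well, gave 7.5 in AS and 11.8 in RC8, from the pseudogene Ube2d-ps alone.
With the first and last PAS, 1 Usp gene in place of 2 had a REDu past 2-fold in AS. With PASs at least 300 nt apart it was 1 in AS and 2 in place of 4 in RC8. Of all genes at that distance, 11.5% in AS and 16.9% in RC8 were at −1 or less, and 1.14% and 5.29% at 1 or more. At 20 percentage points the PAS counts were 0 in AS, 2 in RC4 and 2 in RC8 for Usp and 2 in RC4 and 1 in RC8 for Ube2 genes. The cause of these differences was not tested. The share of all genes is not given at 20 points, for the first and last PAS, 200 reads or 1 count column. Those counts are therefore not set against all genes. Depth limits the few-read members most, such as Ube2l6, Ube2q2, Usp13 and Usp28.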
